A study of Rattus norvegicus with 10 samples.

Results

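Penk, Tac1 and Pdyn encode the precursors of the enkephalins, of substance P and neurokinin A, and of the dynorphins. Every probe set whose only annotated symbol was one of these 3 genes was taken, which gave 3 of the 4736 genes with a probe set of their own and 5 of the 8740 non-control probe sets on the array: 1 for Penk, 2 for Tac1 and 2 for Pdyn. The 10 arrays measured total RNA of rat brain in 5 regions, the caudate putamen, nucleus accumbens, amygdala, ventral tegmental area and prefrontal cortex. Each region had 1 array from cocaine-treated rats and 1 from saline-treated control rats. The labels state no strain, sex, age, dose, route or duration, nor how many animals a sample holds. Each SD of a region below (n = 2) was taken over the cocaine and the saline array of that region, so a treatment difference adds to it.

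Together, caudate putamen and nucleus accumbens make up the striatum, whose projection neurons release GABA together with peptides. Neurons of the direct pathway carry the dopamine receptor Drd1 and make substance P and dynorphin. Neurons of the indirect pathway carry the dopamine receptor Drd2 and the adenosine receptor Adora2a and make enkephalin. Enkephalins act mainly on the mu and delta opioid receptors (Oprm1 and Oprd1), dynorphins on the kappa receptor (Oprk1) and substance P on the neurokinin receptor Tacr1. Cocaine blocks the reuptake of dopamine, and transcription of these peptide genes in the striatum is known to respond to dopamine receptors and cyclic AMP.

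Promoter sequences are shown because the members were compared for moving together by region, and because cyclic AMP is a known input to these genes. RefSeq promoter windows on the GRCr8 build, from 250 bases before to 50 after the gene start, were given for 2 of the 3 genes, Tac1 and Pdyn. The Tac1 window is chr4:36645333-36645632 on the plus strand, and the Pdyn window is chr3:137366454-137366753 on the minus strand. Capitals mark the motifs found, and both windows are printed 5′ to 3′ along the gene.
Tac1: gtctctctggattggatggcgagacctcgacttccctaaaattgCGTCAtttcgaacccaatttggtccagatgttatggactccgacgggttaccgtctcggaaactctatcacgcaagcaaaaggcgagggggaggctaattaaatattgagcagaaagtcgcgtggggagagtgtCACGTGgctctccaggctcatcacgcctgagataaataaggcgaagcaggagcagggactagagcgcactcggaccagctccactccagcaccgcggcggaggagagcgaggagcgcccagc
Pdyn: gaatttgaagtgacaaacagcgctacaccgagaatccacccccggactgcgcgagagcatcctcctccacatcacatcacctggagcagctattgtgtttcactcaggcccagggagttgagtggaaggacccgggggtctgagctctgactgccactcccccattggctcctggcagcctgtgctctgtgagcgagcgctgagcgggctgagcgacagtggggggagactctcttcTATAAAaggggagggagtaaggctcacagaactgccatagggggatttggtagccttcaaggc
The motifs searched, on both strands, were the cyclic AMP response element TGACGTCA, its half-site CGTCA, the AP-1 motif TGANTCA, the E-box CACGTG and the TATA motif TATAAA. The full element contains the half-site. The Tac1 window held the half-site, which starts 206 bases before the gene start, and 1 E-box, while the Pdyn window held 1 TATA motif 13 bases before the start. Among 33469 RefSeq promoter windows of the same length, the half-site was in 21.2%, the E-box in 6.42% and the TATA motif in 14.2%. The full element, present in 1.83%, and the AP-1 motif, present in 7.33%, were in neither window. These matches are descriptions of letters in a window.

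All values are dChip expression indices, the authors' model-based summary of the probes of a probe set on a linear scale, and an index of one probe set cannot be set against that of another. All 5 probe sets passed the filter on low values. The median index of an array lay between 2208 and 2310. The cocaine array of the prefrontal cortex had 226 probe sets listed at 0, against 18 on its saline partner, and the saline array of the amygdala had 91. Markers were read for the striatal and ventral tegmental dissections only. Drd1 read 10904 (cocaine) and 11001 (saline) for caudate putamen, 8166 and 8237 for nucleus accumbens, and no more than 3228 elsewhere. The dopamine-synthesis enzyme Th read 7544 (cocaine) and 6363 (saline) in the ventral tegmental area, against 2599 to 2884 in the other regions. Of 7 dopamine neuron genes tested, 2 passed as higher there than in the other 4 regions, against 7.84% of all tested probe sets.

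Penk and Tac1 were the members whose probe sets had a striatal pattern, and the 2 Pdyn probe sets varied by at most 1.24-fold over all arrays. Against the mean of the amygdala, ventral tegmental area and prefrontal cortex, Penk was 3.96-fold higher in the striatum, and the 2 Tac1 probe sets were 6.29-fold and 3.69-fold higher. Pdyn differed from that mean by 0.01 and -0.03 on the log2 scale, so 3 of the 5 probe sets passed as higher in the striatum, against 1.95% of all tested probe sets. In RNA of a whole dissected region, fewer cells of a type and less RNA per cell cannot be told apart.

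**Figure D1:**
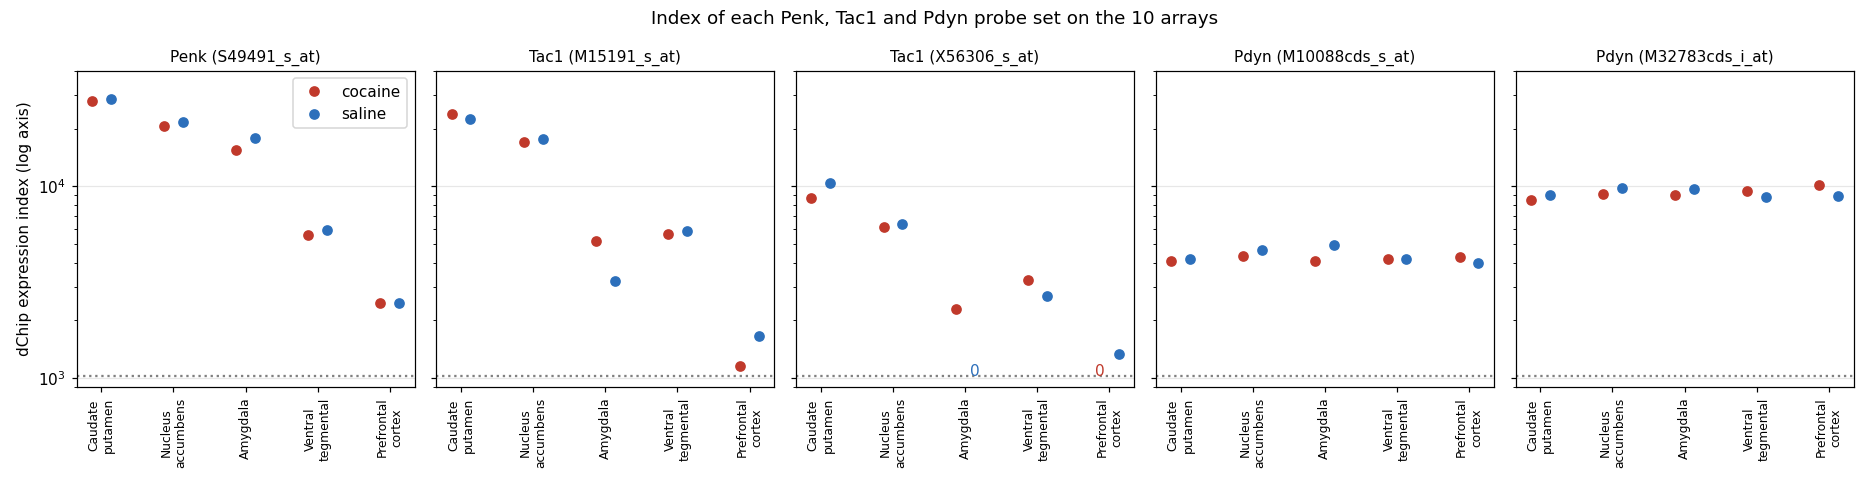
Expression index (log axis) of each of the 5 probe sets on the cocaine (red) and saline (blue) array of each region, with a dotted line at the floor of 1028 and a 0 where a value is listed at 0. Penk and Tac1 are highest in the caudate putamen and nucleus accumbens, and the Pdyn points stay level.

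Penk, measured by S49491_s_at, read 27745 (cocaine) and 28595 (saline) for caudate putamen. For nucleus accumbens it read 20575.5 (cocaine) and 21566 (saline), and in the amygdala 15372 (cocaine) and 17900 (saline). In the ventral tegmental area the index was 5545 (cocaine) and 5894 (saline), and in the prefrontal cortex 2457 (cocaine) and 2462 (saline). The values of the 5 regions did not overlap, and the order ran from caudate putamen to prefrontal cortex with an 11.6-fold span. The region means were 28170.1 ± 601, 21071 ± 701, 16636 ± 1787, 5719 ± 247 and 2459.5 ± 3.53 (SD, n = 2 each) in that order. The SD of its log2 index over the arrays stood at percentile 99.9 among the tested probe sets.

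The striatal excess of Penk was 1.98 on the log2 scale (SE 0.06, 95% interval 1.84 to 2.13, limma adjusted p = 3.01e-06), higher in 4 of 4 striatal arrays than in every other array. In that comparison 1.95% of the 5232 tested probe sets passed as higher, and Penk ranked 4th highest. Left-out arrays and regions moved the value between 1.32, without the prefrontal cortex pair, and 2.70, without the amygdala pair, and each time it passed. Across neighbouring regions, 10 pairwise limma contrasts from the same model were used, 9 of them added after seeing the data. Caudate putamen over nucleus accumbens gave 0.42 (95% interval 0.20 to 0.64, limma adjusted p = 0.135), where 0.765% of probe sets passed in either direction. This difference passed the threshold only without an amygdala array or the amygdala pair (adjusted p between 0.0376 and 0.0383). Nucleus accumbens over amygdala gave 0.34 (95% interval 0.12 to 0.56, limma adjusted p = 0.366), where 0.497% passed in either direction. Amygdala over ventral tegmental area gave 1.54 (limma adjusted p = 0.000312), where 2.37% passed as higher. Ventral tegmental area over prefrontal cortex gave 1.22 (limma adjusted p = 0.000356), where 8.81% passed as higher. The last pair of steps in the Penk order therefore passed the test and the first pair did not.

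Penk was also higher in the amygdala than in the mean of the other 4 regions, by 0.80 on the log2 scale or 1.74-fold (SE 0.08, 95% interval 0.62 to 0.97, limma adjusted p = 0.0106), where 0.401% of probe sets passed as higher. The amygdala lay below both striatal regions and above the other 2, so this contrast sets it against a mixture. The call was lost without the cocaine or the saline array of caudate putamen (adjusted p = 0.0693 and 0.0592), without those of nucleus accumbens (0.0629 and 0.0510), and without the ventral tegmental pair (0.106). Without the prefrontal pair the value was 0.14 (limma adjusted p = 0.557). Summed indices of the 11 measured striatal projection neuron genes were 47769 (cocaine) and 52088 (saline) in the amygdala, against 109663 and 110214 for caudate putamen and 73878 and 75477 for nucleus accumbens. They were 33915 (cocaine) and 33213 (saline) in the ventral tegmental area and 39728 and 38401 in the prefrontal cortex. In the amygdala Ttr, a choroid plexus gene, read 29441 (cocaine) and 41154 (saline), against 11221 and 34312 for caudate putamen and 1692 to 4431 in the other 3 regions. Summed choroid plexus and meningeal genes, Ttr among them, were 68339 (cocaine) and 81226 (saline) in the amygdala, 46192 and 75154 for caudate putamen, and 42475 to 57679 in the other 3 regions. Of 8 genes of that list tested, 1 passed as higher in the amygdala, and 3 had an unadjusted p under 0.05 in either direction. The median log2 difference of the 8 was 0.03. Of 4 genes of excitatory neurons tested, 1 passed as higher in the amygdala, Nrgn, at 1.55-fold above the other 4 regions (limma adjusted p = 0.0360). In that contrast 3 of the 4 had an unadjusted p under 0.05, with a median log2 difference of 0.39. The same list had a median of 0.58 in the prefrontal cortex against its other 4 regions. The part of these other cells in the Penk level was not tested.

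Tac1 was measured by M15191_s_at and X56306_s_at. M15191_s_at read 23885 (cocaine) and 22518 (saline) for caudate putamen, and 17045 (cocaine) and 17690.3 (saline) for nucleus accumbens. The ventral tegmental area gave 5670.03 (cocaine) and 5856 (saline), the amygdala 5158 (cocaine) and 3211 (saline), and the prefrontal cortex 1155 (cocaine) and 1657 (saline). All 4 striatal arrays stood above all 6 others, the span was 20.7-fold, and the SD of the log2 index stood at percentile 99.98 of the tested probe sets. X56306_s_at read 8708 (cocaine) and 10365.5 (saline) for caudate putamen, and 6101 (cocaine) and 6338 (saline) for nucleus accumbens. It read 3257 (cocaine) and 2683 (saline) in the ventral tegmental area. In the amygdala it read 2293 on the cocaine array and was listed at 0 on the saline array, and in the prefrontal cortex it was listed at 0 on the cocaine array and read 1329.57 on the saline array. The order of regions was the same for both probe sets, and the zeros entered the fit as missing values.

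The striatal excess of Tac1 was 2.65 by M15191_s_at (SE 0.15, 95% interval 2.30 to 3.002, limma adjusted p = 6.01e-05) and 1.89 by X56306_s_at (SE 0.11, 95% interval 1.62 to 2.15, limma adjusted p = 0.000562, 8 arrays with a value). They ranked 2nd and 5th highest of the 5232 tested. Left-out arrays and regions moved the first between 2.05, without the prefrontal pair, and 3.08, without the ventral tegmental pair, and it passed each time. With no filter on the mean index, X56306_s_at had the same difference with an adjusted p of 0.0585. Caudate putamen over nucleus accumbens gave 0.42 (95% interval -0.12 to 0.96, limma adjusted p = 0.722) and 0.61 (95% interval 0.24 to 0.98, limma adjusted p = 0.216), so neither passed.

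Outside the striatum Tac1 followed another order than Penk, with the ventral tegmental area above the amygdala in mean. Nucleus accumbens over ventral tegmental area gave 1.59 by M15191_s_at and 1.07 by X56306_s_at (limma adjusted p = 0.00899 and 0.0173), where 2.24% of probe sets passed as higher. The M15191_s_at call was lost without either array of the nucleus accumbens or of the ventral tegmental area (adjusted p between 0.0731 and 0.131) and with no filter (0.106). The X56306_s_at call was lost without the same arrays (adjusted p between 0.0515 and 0.243), with zeros raised to the floor (0.242) and with no filter (0.183). Amygdala minus ventral tegmental area was -0.50 by M15191_s_at (95% interval -1.04 to 0.04, limma adjusted p = 0.337) and -0.36 by X56306_s_at (limma adjusted p = 0.462). Amygdala over prefrontal cortex was 1.56 by M15191_s_at (limma adjusted p = 0.0717) and 0.79 by X56306_s_at (limma adjusted p = 0.478). The amygdala thus could not be placed between its neighbours in the Tac1 order, and left-out arrays changed these calls. Without the amygdala cocaine array M15191_s_at gave -0.91 against the ventral tegmental area (limma adjusted p = 0.0118) and 1.15 against the prefrontal cortex (limma adjusted p = 0.0364). The second of these differences also passed without the amygdala saline array (1.97, limma adjusted p = 0.00146) and without the prefrontal saline array (1.90, limma adjusted p = 0.0406). The 2 amygdala arrays, 5158 with cocaine and 3211 with saline, spread more than those of any other region for M15191_s_at.

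Beside Tac1 in the ventral tegmental area, Hcrt, the hypothalamic orexin precursor, read 6808 on the cocaine array and 23627 on the saline array there, against 2738 to 3620 in the other regions. The Tac1 values on these 2 arrays, 5670.03 and 5856, differed by 1.03-fold. The summed index of the hypothalamic neuron genes, Hcrt among them, was 36375 (cocaine) and 50763 (saline) in the ventral tegmental area, against 36379 to 44937 in the other regions. Pmch was listed at 0 on the cocaine array there, and Pmch, Oxt and Gal on the saline array. Of 9 genes of that list tested against the other 4 regions, 1 passed as higher there and 1 as lower. Among all tested probe sets, 7.84% passed as higher in that contrast and 3.23% as lower. The part of hypothalamic cells in the Tac1 level was not tested.

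Each region was also set against the mean of the other 4. In the caudate putamen Penk was 1.75 higher on the log2 scale (limma adjusted p = 3.91e-05) and Tac1 2.25 and 1.80 higher (adjusted p = 0.000649 and 0.00138), with 1.74% of probe sets called higher. In the nucleus accumbens Penk was 1.23 higher (limma adjusted p = 0.000410) and Tac1 1.73 and 1.03 higher (adjusted p = 0.00828 and 0.0350), with 0.459% called higher. The M15191_s_at accumbens call was lost without either array of the caudate putamen (adjusted p = 0.0555 and 0.0620), without either of the nucleus accumbens (0.308 and 0.366) and with no filter (0.170). The X56306_s_at accumbens call was lost without either array of caudate putamen (adjusted p = 0.153 and 0.129), nucleus accumbens (0.887 and 0.9996) or ventral tegmental area (0.0588 and 0.0794). It was also lost without the ventral tegmental or prefrontal pair (0.0629 and 0.184), with zeros raised to the floor (0.401) and with no filter (0.547). Its caudate putamen call was lost without the saline array of that region (1.61, limma adjusted p = 0.0597) and with no filter (0.0658).

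The prefrontal cortex was the low end for both genes. Penk was lower there by 2.65 (log2 difference -2.65, limma adjusted p = 3.09e-06), and Tac1 by 2.83 and 1.76 (log2 differences -2.83 and -1.76, limma adjusted p = 0.000219 and 0.00682), with 3.67% of probe sets called lower. The X56306_s_at call there was lost without the caudate putamen pair (adjusted p = 0.0669), without the accumbens pair (0.0557) and with no filter (0.119). In the ventral tegmental area Penk was lower (log2 difference -1.13, SE 0.08, limma adjusted p = 0.000133), with 3.23% called lower, and Tac1 gave -0.26 and -0.31 (limma adjusted p = 0.552 and 0.228). Without the amygdala pair these Tac1 values were -0.51 and -0.53 and both passed (limma adjusted p = 0.0121 and 0.0134), as did both without the prefrontal pair (-1.03 and -0.80, limma adjusted p = 0.00571 and 0.0125). In the amygdala Tac1 gave -0.89 and -0.76 (limma adjusted p = 0.104 and 0.219). The M15191_s_at difference there passed without the amygdala cocaine array (-1.30, adjusted p = 0.0163), without the prefrontal cocaine array (-0.97, adjusted p = 0.0419), without the prefrontal pair (-1.70, adjusted p = 0.00440) and with a pseudocount (-0.85, adjusted p = 0.0436). That of X56306_s_at passed without the amygdala saline array, on which it is listed at 0 (adjusted p = 0.0241), and without the prefrontal pair (-1.28, adjusted p = 0.0201).

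Markers of other cells moved in the same contrasts. Of 7 oligodendrocyte genes tested, the caudate putamen had 3 higher, the ventral tegmental area 4 higher and the prefrontal cortex 3 lower. The shares of all tested probe sets called in these directions were 1.74%, 7.84% and 3.67%. Summed oligodendrocyte indices were 130788 (cocaine) and 139719 (saline) for caudate putamen, 134864 and 120972 in the ventral tegmental area and 77206 and 84740 in the prefrontal cortex, against 89194 to 101924 in the other regions. Of 8 choroid plexus and meningeal genes tested, 1 was higher in each of the caudate putamen, amygdala and ventral tegmental area, 1 was lower in the nucleus accumbens and 2 were lower in the prefrontal cortex. Of all tested probe sets, 1.74% (caudate putamen), 0.401% (amygdala) and 7.84% (ventral tegmental area) were called higher. Called lower were 0.0765% (nucleus accumbens) and 3.67% (prefrontal cortex). Ttr gave 2.15 in the caudate putamen and -2.01 in the prefrontal cortex (limma adjusted p = 0.0107 and 0.0158). Their part in the Penk and Tac1 differences was not tested.

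**Figure D2:**
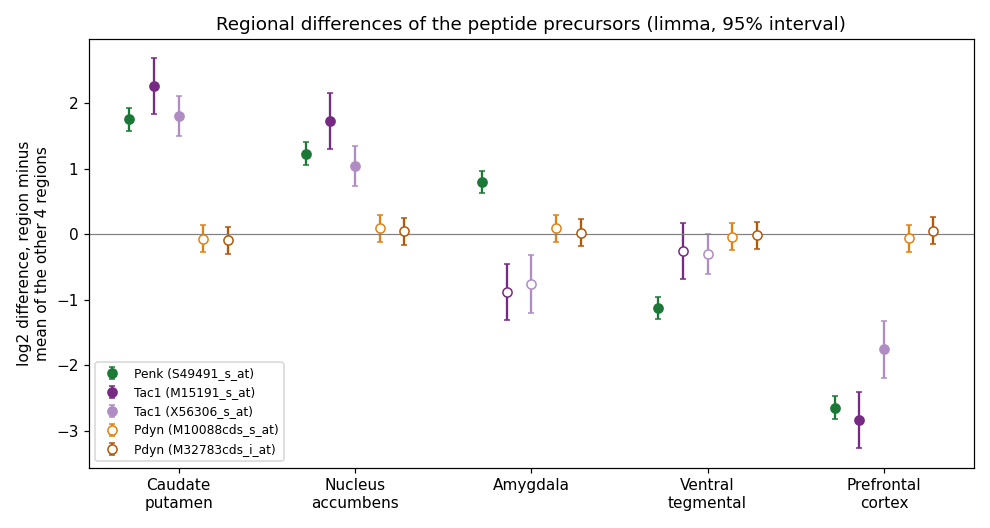
Log2 difference of each probe set between a region and the mean of the other 4 regions, with 95% limma intervals; filled points passed an adjusted p of 0.05 and open points did not. Penk and Tac1 lie above 0 in both striatal regions and below 0 in the prefrontal cortex, and every Pdyn point is open.

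Pdyn, measured by M10088cds_s_at and M32783cds_i_at, had no regional difference past the threshold. M10088cds_s_at read 4064 (cocaine) and 4196 (saline) for caudate putamen, 4349.63 and 4655 for nucleus accumbens and 4100.47 and 4931 for amygdala. It read 4187 (cocaine) and 4199 (saline) in the ventral tegmental area and 4298 and 3977 in the prefrontal cortex. The arrays of different regions overlapped, and the highest index was 1.24-fold the lowest. M32783cds_i_at read 8489 (cocaine) and 9053 (saline) for caudate putamen, 9132 and 9790.09 for nucleus accumbens and 9006 and 9687 for amygdala. It read 9470.29 (cocaine) and 8811 (saline) in the ventral tegmental area and 10191 and 8853 in the prefrontal cortex. These also overlapped, with a span of 1.20-fold.

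The striatal difference of Pdyn was 0.01 (95% interval -0.15 to 0.18, limma adjusted p = 0.950) by M10088cds_s_at and -0.03 (95% interval -0.20 to 0.13, limma adjusted p = 0.864) by M32783cds_i_at. An excess as large as that of Penk lay outside both intervals. The SDs of their log2 indices stood at percentiles 16.9 and 8.98 of the tested probe sets. Whether these probe sets register the Pdyn transcript was not tested, so the intervals set no limit on a striatal excess of the transcript. Caudate putamen minus nucleus accumbens was -0.12 and -0.11 (limma adjusted p = 0.888 and 0.930).

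Tac1 and Penk were then compared with each other as the log2 index of M15191_s_at minus that of S49491_s_at on the same array, a quantity that can be compared between arrays and has no meaning as a level. It was -0.22 (cocaine) and -0.34 (saline) for caudate putamen, and -0.27 and -0.29 for nucleus accumbens. It was -1.58 (cocaine) and -2.48 (saline) in the amygdala, 0.03 and -0.01 in the ventral tegmental area, and -1.09 and -0.57 in the prefrontal cortex. By this probe set the amygdala was lowest, at -2.03 ± 0.64 (SD, n = 2), and the mean was -0.28 in each striatal region. The quantity formed with X56306_s_at was -1.67 (cocaine) and -1.46 (saline) for caudate putamen, and -1.75 and -1.77 for nucleus accumbens. It was -2.75 on the amygdala cocaine array, -0.77 (cocaine) and -1.14 (saline) in the ventral tegmental area, and -0.89 on the prefrontal saline array. The amygdala was lowest by both probe sets, while the prefrontal cortex lay below the striatal regions by M15191_s_at and above them by X56306_s_at. With M15191_s_at, striatal regions minus the others gave 0.67 (two-sided exact permutation test over the 5 region means, p = 0.6, the smallest possible being 0.1), so no difference was detectable in this design. With X56306_s_at the difference was -0.14 (exact permutation p = 1).

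**Figure D3:**
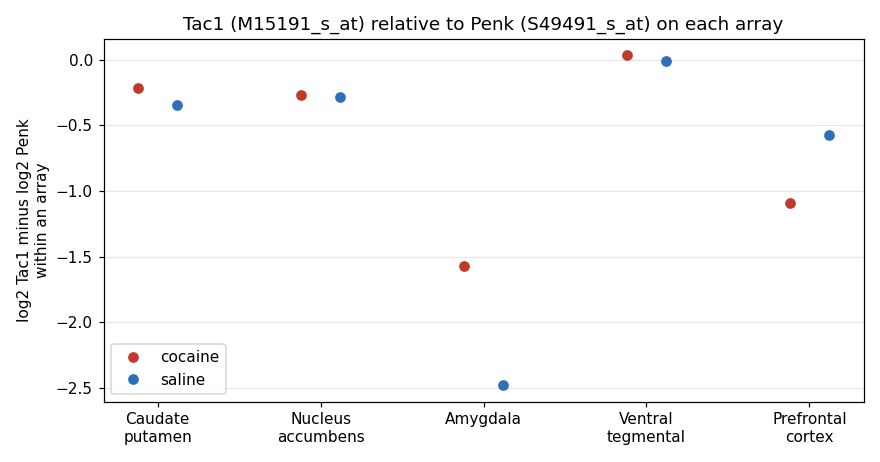
Log2 index of Tac1 minus log2 index of Penk on the cocaine (red) and saline (blue) array of each region. Both striatal regions lie between -0.22 and -0.34, and the amygdala arrays lie at -1.58 and -2.48.

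Genes of the same neurons and pathway were counted in the striatum against the other 3 regions, where 3.73% of the tested probe sets passed in either direction. Of the direct pathway list, 6 of 9 genes were tested and 2 passed, both higher: Drd1, at 2.67 on the log2 scale (limma adjusted p = 1.44e-06), and Tac1. Drd1 read 698 on the prefrontal and 846 on the ventral tegmental cocaine array, which were raised to the floor of 1028, so its difference is a lower bound. Chrm4, a muscarinic receptor of direct pathway neurons, gave -0.01, with the prefrontal cocaine array listed at 0, and Pdyn gave -0.03. Of the indirect pathway list, 4 of 8 were tested and 3 passed, all higher: Penk, Adora2a at 1.20 (limma adjusted p = 6.01e-05) and Drd2 at 0.89 (limma adjusted p = 0.00232). Grik3, a kainate receptor subunit, gave 0.02. The median difference was 0.05 over the 6 direct genes and 1.05 over the 4 indirect genes, against -0.03 over all tested probe sets. These medians rest on few genes and do not rank the pathways. Drd1 and Tac1 (2.65 by M15191_s_at) lay above every indirect gene tested, and whether the Pdyn probe set registers its transcript was not tested.

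Most tested genes common to striatal projection neurons were also higher. Of the 18 listed, 11 were tested and 9 passed, all higher, with a median of 1.18. They included Rgs9, a regulator of G protein signalling, at 1.56, and the retinoid receptor Rxrg at 1.51. Arpp21, a cyclic AMP-regulated phosphoprotein, gave at least 2.41, with 578 (cocaine) and 494 (saline) in the ventral tegmental area raised to the floor. Gnal, the G protein subunit that couples Drd1 and Adora2a to adenylyl cyclase, gave at least 1.75, with 913 (cocaine) and 885 (saline) in the prefrontal cortex raised to it. Between the striatal regions, caudate putamen against nucleus accumbens, 4 of these 11 passed as higher, against 0.325% of all tested probe sets, beside Adora2a at 0.84 (limma adjusted p = 0.0219). Drd1 gave 0.42 there (limma adjusted p = 0.184) and Drd2 0.65 (limma adjusted p = 0.140), and neither passed.

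Most receptors of these peptides could not be tested in the same contrast. Of 7 opioid and tachykinin receptors 2 were tested, and neither passed nor had an unadjusted p under 0.05: Oprk1 gave 0.08 and Oprm1 -0.04. The rest, Oprd1 among them, did not pass the filter on low values. Oprm1 lay between 5786 and 6710 and Oprk1 between 2647 and 3531 over all 10 arrays. Tacr1 was below the floor of 1028 on every array, with 525 to 841, so a regional difference in it could not be measured here.

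The enzymes that cut, amidate and break down these peptides showed no difference past the threshold either. Of 18 listed, 14 were tested and 0 passed by limma (1 at an unadjusted p under 0.05, median -0.06), and the largest values were 0.18 for Ctsl, a protease that cuts proenkephalin, -0.15 for Ece1, -0.13 for Pam, the amidating enzyme of substance P, and -0.11 for Prep. Of 11 tested transcription regulators of the 19 listed, 0 passed by limma (2 at an unadjusted p under 0.05), with Egr1 at 0.46, Jun at -0.28, Atf2 at -0.24 and Crem at 0.16. Of 31 peptide precursors 21 were tested, and those that passed were Penk and Tac1 as higher and Cck, the cholecystokinin precursor, as lower (-0.81, limma adjusted p = 0.0420).

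Markers of other cells were counted in the same contrast. Of 9 interneuron genes tested, Gad1 at 1.03 and Slc32a1 at 0.72, genes of GABA synthesis and vesicle loading that striatal projection neurons also use, passed as higher (limma adjusted p = 0.0212 and 0.0214), and Calb2 as lower (-0.74, limma adjusted p = 0.00527). Of 4 excitatory neuron genes tested Cck passed as lower, and of 7 dopamine neuron genes Th did (-0.47, limma adjusted p = 0.0142). The hypothalamic (9 tested), choroid plexus (8) and oligodendrocyte (7) lists had 0 calls by limma, against 2, 0 and 4 genes at an unadjusted p under 0.05. The part of other cells in the striatal differences was not tested.

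Cocaine against saline was compared across the regions with region as a block. No member passed, and none of the 5232 tested probe sets did (0% called by limma), while an unadjusted p under 0.05 was found for 69, of which 8 were higher and 61 lower. Penk gave -0.08 (SE 0.06, 95% interval -0.22 to 0.05), Tac1 0.03 (95% interval -0.31 to 0.37) and -0.01 (95% interval -0.31 to 0.29), and Pdyn -0.06 (95% interval -0.22 to 0.10) and 0.0017 (95% interval -0.16 to 0.17), each with a limma adjusted p of 0.9999. For the mean over regions, a change of 1.5-fold in either direction lay outside the intervals of Penk, both Pdyn probe sets and M15191_s_at. The M15191_s_at mean joins log2 ratios as far apart as 0.68 in the amygdala and -0.52 in the prefrontal cortex. Since it was not tested whether the Pdyn probe sets register their transcript, their intervals set no limit on a change of Pdyn itself. The interval of X56306_s_at rests on the 3 region pairs without a 0, and setting those zeros at the floor gave -0.39 to 0.69 around 0.15, which holds a 1.5-fold rise. In each of the 13 gene lists 0 genes passed by limma for cocaine, with at most 1 gene of a list at an unadjusted p under 0.05.

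Penk had the lower index with cocaine in 5 of 5 regions, as did 1.63% of the 4894 probe sets above 0 on every array, while 1.45% were higher in all 5. For Penk the log2 ratio of cocaine over saline was -0.04 in caudate putamen, -0.07 in accumbens, -0.22 in amygdala, -0.09 in the ventral tegmental area and -0.0029 in the prefrontal cortex. They stood between percentiles 25.9 and 47.7 of the ratios of all tested probe sets in their region, and each rests on 1 array over 1 array. The interaction of cocaine with region class, striatum minus the other 3 regions, was 0.05 for Penk, -0.02 and -0.43 for Tac1 and -0.02 and -0.16 for Pdyn, none past the threshold (limma adjusted p = 0.9997 each, 0% of 5229 probe sets called). For X56306_s_at the amygdala and prefrontal pairs each held a 0. Its -0.43 therefore set the striatal pairs against the ventral tegmental pair alone, with 1 residual degree of freedom.

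Within single regions, the member with a fold of at least 1.5 was Tac1 by M15191_s_at in the amygdala, 1.61-fold higher with cocaine (5158 against 3211), where 8.89% of probe sets had such a fold in either direction and 1.42% as higher. Its ratio stood at percentile 99.3 of that region. X56306_s_at was listed at 0 on the saline array and gives no ratio there. Beside it, Drd1 read 3228 (cocaine) and 2760 (saline) in the amygdala, and the summed striatal projection neuron genes were 47769 and 52088. In the prefrontal cortex M15191_s_at gave -0.52, at percentile 2.78, on values near the floor. In the caudate putamen the 2 Tac1 probe sets gave 0.09 and -0.25, in opposite directions. The Pdyn ratios lay between -0.27 and 0.20 over all regions and both probe sets. No member reached 1.5-fold elsewhere, where the shares of probe sets that did were 0.153% for caudate putamen, 0.229% for accumbens, 1.65% for the ventral tegmental area and 4.92% for prefrontal cortex. No test is possible on 1 array a side.

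**Figure D4:**
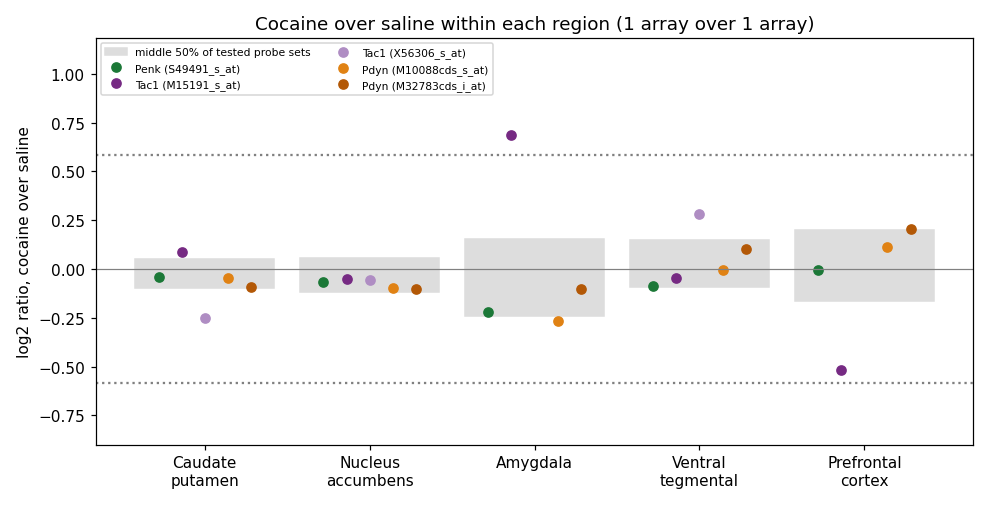
Log2 ratio of cocaine over saline within each region for each probe set, 1 array over 1 array, with grey boxes for the middle 50% of tested probe sets and dotted lines at 1.5-fold. The single member point past a dotted line is Tac1 (M15191_s_at) in the amygdala.

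Tac1 minus Penk within an array was 0.11 ± 0.51 higher with cocaine over the 5 regions (SD, n = 5 pairs), with a two-sided exact sign-flip permutation p of 0.5625, the smallest possible being 0.0625. Its difference was therefore not detectable beyond the spread between regions.

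The genes whose log2 index over the 10 arrays was most like that of a member are given as a description, since the arrays fall into 5 pairs by region and share their processing. Among 4048 genes, those most like Penk were Gng10 (Pearson r = 0.948), Gnal (0.942), Drd1 (0.915), Ptpn5 (0.905) and Pcp4 (0.901). Those most like Tac1 were Pcp4 (0.985), Dbp (0.961), Ppp1cc (0.950), Rxrg (0.950) and Pde4b (0.943). Those most like Pdyn were Nppa (0.916), Fgfr1-ps1 (0.910), Fbxw5 (0.908), Lhx5 (0.905) and Nr3c1 (0.904), on a probe set with a span of 1.20-fold.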

How the data were processed

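Rat brain RNA was hybridised to 1-colour oligonucleotide arrays, 1 per sample. The authors deposited an intensity per probe set, on a linear scale, which per the labels is the expression index of dChip. Version, model and array scaling of dChip: not given in the sources used here. Region and treatment come from the labels, and 2 arrays pair because their labels name 1 region. The number of arrays limits the precision. The labels do not tie samples to separate animals, so p-values measure only the spread between these samples, which may be technical.

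After removal of 59 control probe sets from 8799, 7006 of the 8740 left carried a single symbol. An exact 0 (593 values) can be a failed estimate and was taken as missing. A floor at the 20th percentile of values above 0 (index 1028) was set before log2, and the 60% of probe sets highest in mean index (5244) entered the fit, of which 5232 gave a value. The fit was limma (version 3.58.1, R 4.3.3) with trended empirical Bayes, tested on simulated data. Adjusted p-values are Benjamini-Hochberg over all tested probe sets, with a threshold of 0.05. Region contrasts included treatment, and cocaine against saline had region as a block, both with 4 residual degrees of freedom where no value was missing (2 for X56306_s_at). Within a region only ratios were computed. Tac1 minus Penk used exact permutation tests.

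The members, gene lists and alternatives were chosen with earlier results of these data known. Named genes were all member probe sets, the 5 genes most like each by Pearson correlation, up to 4 members of a list by striatal difference, and Drd1, Drd2, Adora2a and Chrm4. A gene in a list was represented by its brightest probe set on average. Promoters came from RefSeq, GRCr8. Alternatives were zeros raised to the floor, median scaling, quantile normalization, a floor at the 10th percentile, no filter, no intensity trend, a pseudocount of 1000, no region block, and the loss of each array or region pair.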

Additional observations from a re-analysis of the deposited data

How the results depend on the processing

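Limits: each region holds 1 cocaine and 1 saline array, so within-region ratios have no test, and a region's level rests on 2 arrays, or on 1 for X56306_s_at in the amygdala and prefrontal cortex. The striatal calls of Penk and Tac1 (M15191_s_at) passed under all alternatives run, and that of X56306_s_at under all but the loss of the filter (1.89, adjusted p = 0.0585). No member passed for cocaine under any alternative run.

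Counts of probe sets past the threshold moved by over 1.5 times as follows. With zeros raised to the floor they were 129 for the striatum against the other 3 regions, 1 for caudate putamen against nucleus accumbens, 9 for the amygdala, 18 for the nucleus accumbens and 149 for the prefrontal cortex, against 195, 40, 32, 28 and 262 as reported. With median scaling, caudate putamen against nucleus accumbens had 24 and the amygdala 17. With no filter they were 106 (striatum), 3 (caudate putamen against nucleus accumbens), 350 (ventral tegmental area), 74 (prefrontal cortex), 10 (nucleus accumbens), 128 (caudate putamen) and 3 (amygdala), the last 5 against the mean of the other regions. The cause was not tested. Leaving out an array or a region pair gave counts of 30 to 413 for the striatum, 0 to 155 for caudate putamen against nucleus accumbens, 0 to 381 for the amygdala, 22 to 503 for the caudate putamen, 3 to 75 for the nucleus accumbens, 54 to 739 for the prefrontal cortex, 118 to 946 for the ventral tegmental area, 0 to 211 for the interaction and 0 in each case for cocaine.

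Some differences that had not passed changed sign, most of them near 0. The cocaine difference of Tac1 (X56306_s_at) was 0.15 with zeros raised to the floor, 0.0012 with quantile normalization and 0.19 with no replicate block, and that of Pdyn (M32783cds_i_at) -0.0044 with median scaling. The interaction of Pdyn (M10088cds_s_at) was 0.0229 and 0.0183 and that of Tac1 (M15191_s_at) 0.019 and 0.0379 with median scaling and quantile normalization. Leaving out an array or a region pair also turned the sign of differences that had not passed. The striatal difference ranged from -0.049 to 0.075 (Pdyn, M10088cds_s_at) and -0.089 to 0.020 (M32783cds_i_at). The region differences of M10088cds_s_at ranged from -0.043 to 0.21 (amygdala) and -0.17 to 0.042 (prefrontal cortex). Those of M32783cds_i_at ranged from -0.046 to 0.087 (amygdala), -0.021 to 0.11 (nucleus accumbens), -0.075 to 0.18 (prefrontal cortex) and -0.084 to 0.044 (ventral tegmental area). In the ventral tegmental area Tac1 ranged from -1.03 to 0.32 (M15191_s_at) and from -0.80 to 0.15 (X56306_s_at). The cocaine difference ranged from -0.13 to 0.17 and -0.15 to 0.11 for the Tac1 probe sets and from -0.049 to 0.028 for Pdyn (M32783cds_i_at). The interaction ranged from -0.13 to 0.063 for Pdyn (M10088cds_s_at), -0.30 to 0.30 for Tac1 (M15191_s_at) and -0.010 to 0.098 for Penk. Caudate putamen minus nucleus accumbens for Penk kept its sign and ranged from 0.39 to 0.44. Tac1 minus Penk, striatal regions minus the others, was 0.67 with M15191_s_at and -0.14 with X56306_s_at. Without the region block the cocaine count stayed at 0. A pseudocount of 1000 moved the median of all probe sets by 0.35 and other scalings by 0.01 or less.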
